A study of Homo sapiens with 4 samples.

Results

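MDM2, MDM4, CDKN1A, CCNG1, RPRM, SFN, GADD45A, PPM1D and ZMAT3 are 9 genes that control p53 or carry out the growth arrest that p53 can start. They were taken as a list of symbols and matched by Ensembl identifier to GENCODE, which found all 9 among the 60564 genes counted. RNA-seq counts of these genes were compared between Elf1 cells, a naïve human embryonic stem cell (ESC) line derived from an 8-cell embryo, in 2-D and 3-D culture. The 2-D grown cells adhered to plastic coated with Matrigel, and the 3-D grown cells were dissociated, encapsulated in scaffolds of polyethylene glycol (PEG-8-SH with PEG-8-Acr) and kept there for 21 days. Both conditions used the same ESC expansion medium, which in the study's methods holds FGF2, LIF, KnockOut serum replacement and the inhibitors CHIR99021 and PD03296501. Each condition had 2 libraries, described by the study as independent biological replicates of this single line, and the line had been kept on mouse feeder cells before it was moved to Matrigel.

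The p53 protein is a transcription factor that stressed or damaged cells stabilize. MDM2 is a ubiquitin ligase that marks p53 for destruction and is itself switched on by p53, and MDM4, its relative, binds p53 and blocks its activity. Among the targets, CDKN1A encodes the cyclin-dependent kinase inhibitor p21, and RPRM, SFN and GADD45A hold back entry into mitosis. CCNG1 and PPM1D belong to feedback loops that lower p53 signaling again, and ZMAT3 encodes a zinc finger protein that binds RNA. In ESCs, p53 activity is known for its links to differentiation, cell death and the loss of self-renewal.

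p53 binds a consensus of 2 copies of a 10-base unit. A search of the 5000 bases on each side of each gene's start in GENCODE release 44 on hg38 asked for 20 bases with both copies adjacent, the C and G of each copy in place and at most 2 mismatches at the other positions. The consensus reads the same on both strands, so each match was found once. At least 1 match was found for 6 of the 9 genes, whereas 7.56% of 19873 protein-coding genes had one. The matches are shown because the genes were listed as regulators and targets of p53, on each gene's own strand, with the required C and G in capitals:
CDKN1A, chr6:36676449-36676468, plus strand, spanning the annotated gene start: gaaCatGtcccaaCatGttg
MDM2, chr12:68808923-68808942, plus strand, intronic: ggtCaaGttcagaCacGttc
GADD45A, chr1:67686775-67686794, plus strand, intronic: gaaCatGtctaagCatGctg
ZMAT3, chr3:179070188-179070207, minus strand, intronic: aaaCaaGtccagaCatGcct
CCNG1, chr5:163437926-163437945, plus strand, intronic: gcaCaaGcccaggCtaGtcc
CCNG1, chr5:163439946-163439965, plus strand, intronic: gacCtaGtcaagaCttGctt
SFN, chr1:26867106-26867125, plus strand, downstream of the gene: aggCatGcaccagCatGtcc

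The ZMAT3 match had 0 mismatches, the GADD45A match and the first CCNG1 match had 1 each, and the others had 2. MDM4, RPRM and PPM1D had no such letters in this window. In a separate search of RefSeq promoter windows, a single 10-base unit with no mismatch was in 0 of the 13 windows of these genes. It was in 6.63% of all 35116 windows. The windows of these genes did not take in the CDKN1A match, whose first unit has no mismatch and lies at the GENCODE gene start. A match is a description of the sequence and does not show that p53 was bound there in Elf1 cells.

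**Figure D1:**
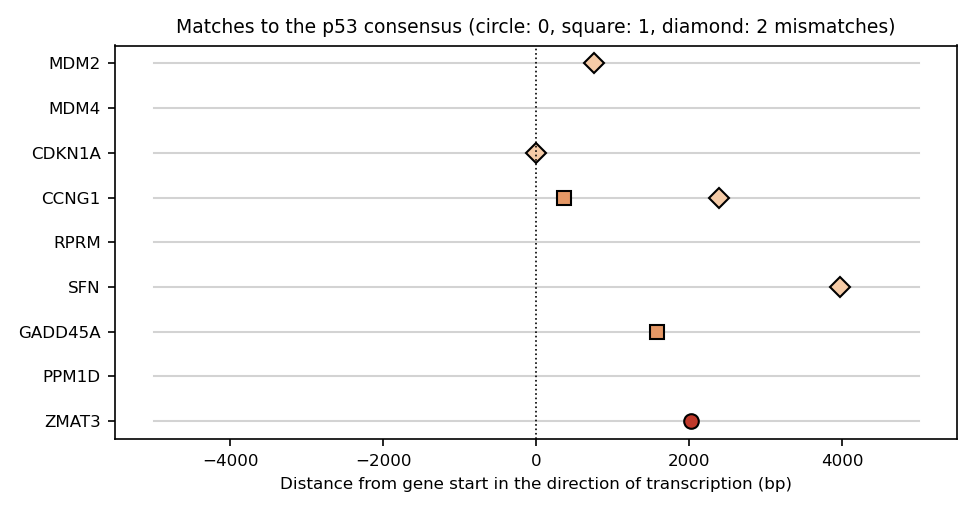
Position of each match to the p53 consensus, as distance in base pairs from the gene start in the direction of transcription (x axis), for the 9 genes (y axis). Marker shapes give the number of mismatches, and 6 genes hold at least 1 match, with none more than 5000 bp away because the search ended there.

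The libraries held 33833778 and 30114220 counts in 2-D and 21154409 and 18276147 counts in 3-D grown cells. The share of counts from the mitochondrial genome was 5.1% to 5.3% in 2-D and 8.33% to 8.5% in 3-D grown cells. The core pluripotency markers were abundant in every library, with LIN28A between 1721 and 1812 CPM, the count relative to library size after TMM normalization, and POU5F1 between 109 and 132. Among 6 naïve markers, TFCP2L1 had 22.1 to 23.8, DNMT3L 14.6 to 17.9, KLF4 9.26 to 10.4, DPPA3 5.75 to 7.43 and KLF17 0.465 to 1.07 CPM, and DPPA5 had 0 to 4 counts per library. Among other lineages, 0 of the endoderm, mesoderm, neural ectoderm and trophoblast markers passed the test. Of their log2 fold changes 2, 3, 1 and 3 were above 0 in these lists, and 1 in each was below. GATA6 and HAND1 had 1.0 and 0.98 (edgeR, Benjamini-Hochberg adjusted p = 0.0516 and 0.0695), at 27 to 48 and 21 to 26 counts per library. The 2 stratified epithelium markers of 5 that passed the filter, KRT15 and KRT17, summed to 1.39 to 1.9 CPM, and KRT14 and IVL were at 0 counts in all 4 libraries. The 4 fibroblast markers of 6 that passed the filter summed to 461 and 453 CPM in 2-D and 461 and 503 CPM in 3-D grown cells. Of these 4, COL1A1 and COL3A1 passed the test as higher in 3-D, with log2 fold changes of 0.29 and 0.73. COL1A2 (−0.04), the most abundant of them, and PDGFRB (0.02) did not pass it. DCN and LUM did not pass the filter, with 2 to 6 and 3 to 17 counts per library. The part of these marker differences in the results below was not tested, and fewer cells of a type cannot be told apart from less RNA per cell in such samples.

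Across the 9 genes, MDM4, RPRM and CCNG1 fell in 3-D grown cells, none rose, and 6 did not pass the test. MDM4 fell by 11.5%, RPRM fell by 15.3% and CCNG1 fell by 7.23%. A gene is called when its Benjamini-Hochberg adjusted p in edgeR's quasi-likelihood test is below 0.05, which held for 7.9% of the 22555 genes tested, 3.36% lower and 4.54% higher in 3-D grown cells. Every one of the 9 genes was tested, and of those with a higher mean in 3-D only SFN had an unadjusted p below 0.05, while DESeq2 called 0 higher. Their median log2 fold change (3-D over 2-D) was −0.06, against −0.00014 over all genes tested, and 7 of the 9 values were below 0. MDM4, CCNG1, RPRM and SFN had been named by the study from these same libraries, so their directions are not independent evidence. The study named SFN as higher in 3-D and the others as higher in 2-D grown cells. With a separate assay, qRT-PCR, it reported MDM4, CCNG1 and CDK1 as lower and CREBBP as higher in 3-D grown cells. Of the pathway genes below, ATM, CHEK2, CDK1, CREBBP and EP300 had likewise been named by the study from these libraries.

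**Figure D2:**
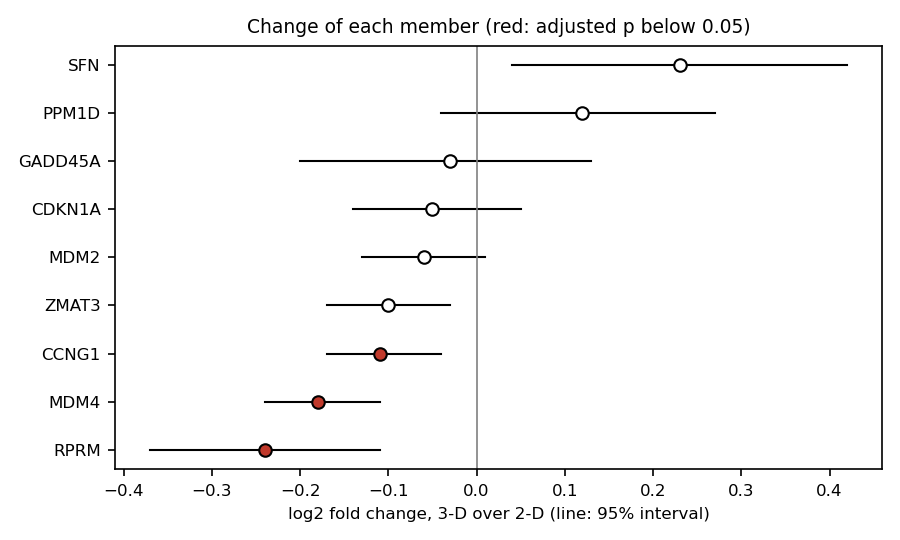
Log2 fold change, 3-D over 2-D (x axis) for each of the 9 genes (y axis), with lines for the 95% interval from edgeR's fit. Red points are genes with an adjusted p below 0.05, which are RPRM, MDM4 and CCNG1, all to the left of 0, and the interval of SFN lies to the right of 0 although its adjusted p of 0.15 misses the threshold.

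Of the proteins that restrain p53, MDM2 (chromosome 12 from 68808177 to 68845544, 17 merged exons) had 590 and 601 CPM in the 2-D and 578 and 566 CPM in the 3-D libraries. Both 3-D libraries lay below both 2-D libraries, by a narrow margin. MDM2 had a fitted log2 fold change of −0.06 (standard error 0.03, edgeR, Benjamini-Hochberg adjusted p = 0.286), with a 95% interval from −0.13 to 0.01. MDM2 shares exonic bases with an antisense transcript, ENSG00000257181 (chromosome 12 from 68841288 to 68843237), whose 785 exonic bases all lie within exons of MDM2. That transcript had 116 and 123 CPM in 2-D and 110 and 105 CPM in 3-D grown cells. It was called lower with a log2 fold change at −0.15 (standard error 0.04, edgeR, Benjamini-Hochberg adjusted p = 0.0225) and was singled out after its values were seen. The strand setting of the counting is not given, so how far reads of MDM2 and of this antisense partner were kept apart is not known. On the same strand, the pseudogene ENSG00000256664 shares 439 exonic bases with MDM2 and had 0 counts in every library. The opposite-strand protein-coding gene with the symbol CPM (here not the unit) shares 133 exonic bases with MDM2 and was not called.

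MDM4 (chromosome 1 from 204516379 to 204558120, 13 merged exons) had 135 and 140 CPM in the 2-D and 121 and 122 CPM in the 3-D libraries. The conditions did not overlap, and the gap between them was larger than the difference between replicates of either. Its log2 fold change was −0.18 (standard error 0.03, edgeR, Benjamini-Hochberg adjusted p = 0.00371), with a 95% interval from −0.24 to −0.11. This was the smallest adjusted p of the 9 genes. The call was lost without 2-D replicate 2 (log2 fold change −0.15, edgeR, Benjamini-Hochberg adjusted p = 0.064) and held under each of the other 14 alternative processings.

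PPM1D (chromosome 17 from 60600193 to 60666280) encodes the phosphatase WIP1, which removes activating phosphates from p53 and from the kinases upstream of it. It had 44.5 and 51.4 CPM in the 2-D and 49 and 55.1 CPM in the 3-D libraries. The conditions overlapped, and the replicates of each condition differed by more than the condition means did. The log2 fold change was 0.12 (standard error 0.07, edgeR, Benjamini-Hochberg adjusted p = 0.381). Without 3-D replicate 1 it was 0.20 with an adjusted p of 0.0428 in edgeR's test, and with any other library left out it ranged from 0.015 to 0.23 and was not called.

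CCNG1 (chromosome 5 from 163437569 to 163446151, 8 merged exons) encodes cyclin G1, a p53 target that recruits a phosphatase to MDM2. It had 423 and 435 CPM in the 2-D and 396 and 400 CPM in the 3-D libraries, with no overlap. The log2 fold change was −0.11 (standard error 0.03, edgeR, Benjamini-Hochberg adjusted p = 0.0487), just inside the threshold. Once GC content and gene length were corrected for by offsets, it was −0.055 (edgeR, Benjamini-Hochberg adjusted p = 0.313). GC made up 38% of its longest transcript, and the call was also lost without either 2-D library (adjusted p = 0.154 without replicate 1 and 0.476 without replicate 2, edgeR).

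ZMAT3 (chromosome 3 from 178960121 to 179072215) encodes a p53-induced zinc finger protein that binds RNA. It had 121 and 116 CPM in the 2-D and 111 and 110 CPM in the 3-D libraries. The 3-D values were both below the 2-D values, but the log2 fold change of −0.10 did not pass the test (standard error 0.03, edgeR, Benjamini-Hochberg adjusted p = 0.0875). Its 95% interval ran from −0.17 to −0.03, and without 3-D replicate 1 the gene was called (edgeR, Benjamini-Hochberg adjusted p = 0.0384).

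**Figure D3:**
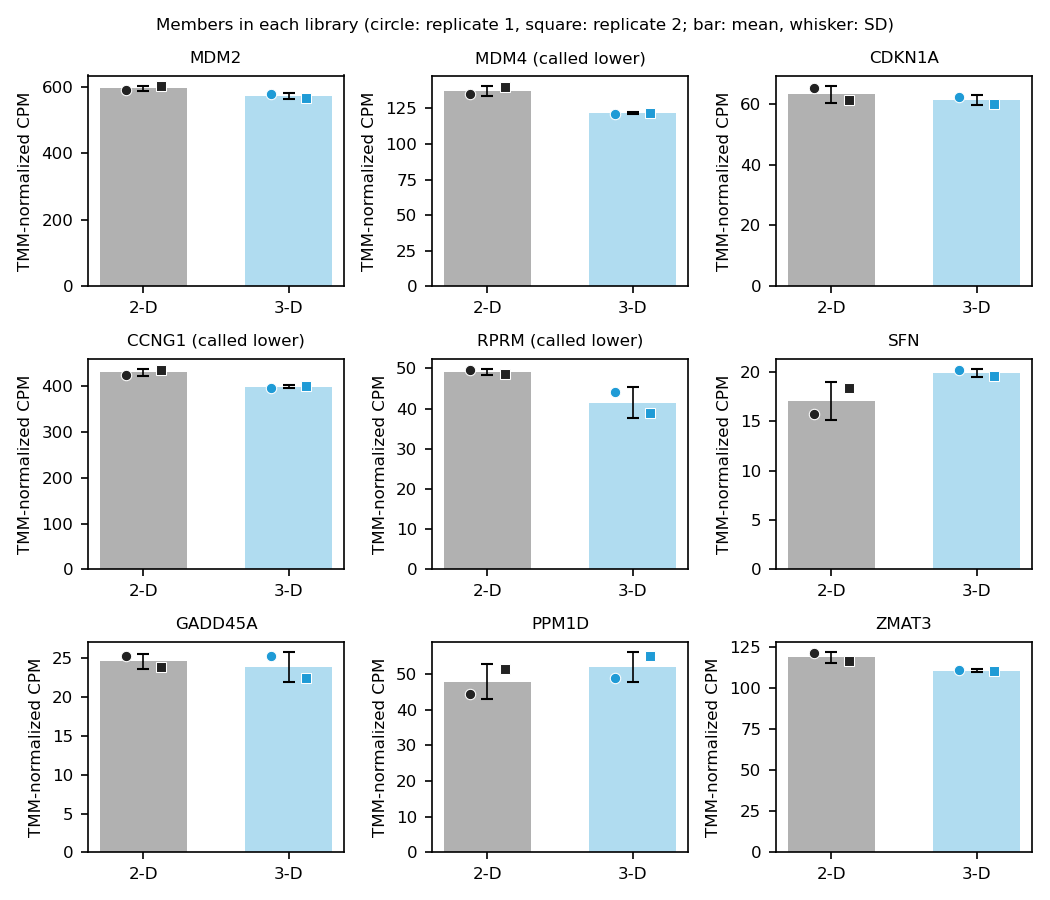
TMM-normalized CPM (y axis, from 0) of the 9 genes in each library of the 2-D and 3-D conditions (x axis), with bars for the mean and whiskers for the SD of 2 replicates. MDM4, RPRM and CCNG1 were called lower in 3-D grown cells, while the libraries of CDKN1A, GADD45A and PPM1D overlapped between conditions.

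Of the arrest genes, CDKN1A (chromosome 6 from 36676460 to 36687337) had 65.1 and 61.1 CPM in the 2-D and 62.2 and 59.9 CPM in the 3-D libraries. The libraries overlapped, and the condition means differed by less than the 2-D replicates did, the log2 fold change being −0.05 (standard error 0.04, edgeR, Benjamini-Hochberg adjusted p = 0.6). The 95% interval ran from −0.14 to 0.05. CDKN1A overlaps the opposite-strand transcript DINOL over 146 exonic bases. DINOL had 21 to 52 counts per library and was not called (−0.05 on the log2 scale, standard error 0.3, edgeR, Benjamini-Hochberg adjusted p = 0.948).

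RPRM (chromosome 2 from 153477338 to 153478762, a single exon) encodes reprimo, a cytoplasmic protein that blocks the mitotic CDK1 and cyclin B complex. It had 49.7 and 48.5 CPM in the 2-D and 44.2 and 38.8 CPM in the 3-D libraries. Both 3-D libraries were lower, although they differed from each other by more than the 2-D libraries did. The log2 fold change was −0.24 (standard error 0.06, edgeR, Benjamini-Hochberg adjusted p = 0.0294), the largest decrease of the 9 genes. It was −0.15 without 3-D replicate 2 (edgeR, Benjamini-Hochberg adjusted p = 0.121), and the call was also lost without 2-D replicate 1 (−0.22, adjusted p = 0.0732).

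SFN (chromosome 1 from 26863149 to 26864456, a single exon) encodes stratifin, an adaptor that holds mitotic CDK and cyclin complexes in the cytoplasm and is typical of epithelia. It had 15.7 and 18.4 CPM in the 2-D and 20.2 and 19.6 CPM in the 3-D libraries, so both 3-D values were above both 2-D values. The log2 fold change of 0.23 did not pass the test over all genes (standard error 0.09, unadjusted p = 0.0231 and Benjamini-Hochberg adjusted p = 0.15 in edgeR's test). It ranged from 0.12 without 2-D replicate 1 to 0.34 without 2-D replicate 2 and was called under none of the 15 alternatives. Of the epithelial markers, KRT17 had 1.1 and 1.43 CPM in 2-D and 1.31 and 1.79 CPM in 3-D grown cells. Its log2 fold change of 0.29 did not pass the test (edgeR, Benjamini-Hochberg adjusted p = 0.615). KRT15, the other one tested, went the other way, at −0.12, and did not pass it (edgeR, Benjamini-Hochberg adjusted p = 0.942). KRT5 had 1 or 2 counts per library. Their part in the SFN values was not tested.

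GADD45A (chromosome 1 from 67685201 to 67688334) encodes a stress sensor that binds the CDK1 kinase. It had 25.3 and 23.9 CPM in the 2-D and 25.3 and 22.5 CPM in the 3-D libraries. These overlapped, and the log2 fold change of −0.03 had the largest adjusted p of the 9 genes (standard error 0.08, edgeR, Benjamini-Hochberg adjusted p = 0.852).

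In 6 of the 9 genes the libraries of the conditions did not overlap, 5 of them lower and SFN higher in 3-D grown cells. The background of this count is high, since 50.5% of all tested genes had no overlap. The number of called genes moved from 3 to 1 with DESeq2 and with edgeR's likelihood ratio test, which both kept MDM4 alone. It moved to 5 when libraries were scaled by their total count alone, where MDM2 (log2 fold change −0.12, edgeR, Benjamini-Hochberg adjusted p = 0.0211) and ZMAT3 (−0.16, adjusted p = 0.00706) were called too. That scaling moved the median of all genes to −0.065. The number was 1 without either 2-D library, and it was 5 with 3-D replicate 1 left out and 2 with 3-D replicate 2 left out.

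**Figure D4:**
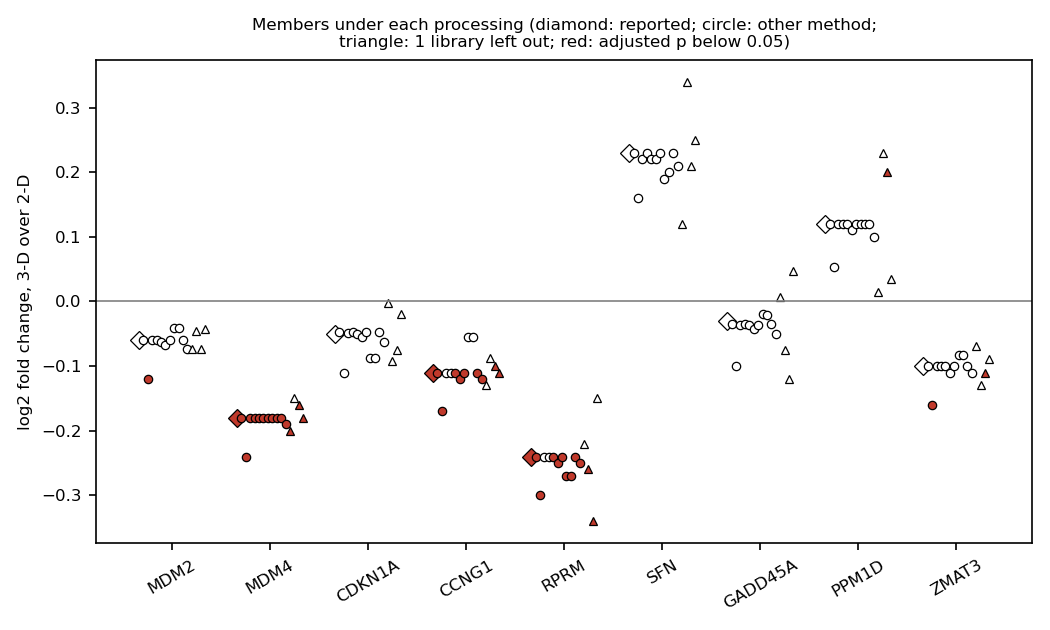
Log2 fold change, 3-D over 2-D (y axis) of the 9 genes (x axis) as reported (diamonds), under other methods (circles) and with each of the 4 libraries left out (triangles). Red marks an adjusted p below 0.05, and MDM4 was called under 14 of the 15 alternatives, RPRM under 11 and CCNG1 under 9.

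Levels can be set side by side only per length, here as CPM per kilobase of merged exons. CCNG1 was highest, at 128 to 141 across the 4 libraries, and MDM2 followed at 68.1 to 72.4. RPRM had 27.2 to 34.8 and CDKN1A 20 to 21.7. SFN, at 12 to 15.4, overlapped GADD45A, at 11.7 to 13.2, which in turn overlapped MDM4, at 11 to 12.7. ZMAT3 had 9.73 to 10.7 and PPM1D, the lowest, 4.73 to 5.85. Apart from SFN with GADD45A and GADD45A with MDM4, neighbors in this order did not overlap in any library, and the mean level spanned a 25.1-fold range. The level of MDM2 per kilobase was 5.77 and 5.71 times that of MDM4 in the 2-D and 6.33 and 6.12 times in the 3-D libraries, a ratio for which no test was made.

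The upstream regulators of p53 went in both directions. Of the 20 genes of the p53 family and its upstream regulators, 19 were tested, 6 rose and 3 fell, 10 did not pass the test, and the median log2 fold change was −0.014. Over all tested genes, 4.54% were called higher and 3.36% lower. TP63 had at most 1 count in any library and was not tested. The genes that fell were the damage kinases ATM (log2 fold change −0.14) and CHEK2 (−0.20) and the ubiquitin ligase RCHY1 (−0.24), which also targets p53 (edgeR, Benjamini-Hochberg adjusted p = 0.0137, 0.0134 and 0.0312). Those that rose included the acetyltransferases CREBBP (0.29) and EP300 (0.14), which act on p53 and on many other proteins (edgeR, adjusted p = 0.000171 and 0.0138). The kinase HIPK2 (0.13), the deubiquitinase USP7 (0.12), which stabilizes MDM2 and p53, and the ribosomal protein RPL11 (0.14), which binds MDM2, rose as well (edgeR, adjusted p = 0.0247, 0.0315 and 0.0289). ATM, CHEK2 and RCHY1 lost the call with DESeq2 and the likelihood ratio test and under 3, 4 and 6 of the 15 alternatives in all, whereas CREBBP kept it under each. HIPK2, EP300, USP7 and RPL11 lost it under 8, 4, 5 and 3 of the 15. These 4 lost the call under scaling by total count alone, with values of 0.064, 0.073, 0.053 and 0.075. Of the list, 3 genes were called when 2-D replicate 1 was left out and 1 when 2-D replicate 2 was.

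Most targets of p53 outside the 9 genes had values below 0, and 4 were called, all lower. All 26 were tested, 4 fell, 0 rose and 22 did not pass the test, while 3.36% of all tested genes were called lower. The list had a median log2 fold change of −0.057 and values from −0.28 to 0.11. In all, 21 of the 26 values were below 0, as were 11283 of the 22555 genes tested. Of those above 0, 1 gene, XPC, which recognizes DNA lesions and is named here after its values were seen, had an unadjusted p below 0.05 in edgeR's test, and DESeq2 called 0. TRIAP1, an inhibitor of apoptosis, had 63.2 and 61.5 CPM in the 2-D and 52.1 and 50.8 CPM in the 3-D libraries (log2 fold change −0.28, edgeR, Benjamini-Hochberg adjusted p = 0.00159). The ribonucleotide reductase subunit RRM2B (−0.19) and the death receptor TNFRSF10B (−0.18) fell too (edgeR, adjusted p = 0.00278 and 0.00469). Scaling by total count alone called 10 of the 26, and 7 were called without 3-D replicate 2.

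Among 19 cyclins, kinases and partners on which the arrest proteins act, CDK1 and WEE1 fell and none rose. Their median log2 fold change was 0.0042, and 7.9% of all tested genes were called in either direction. CDK1, the mitotic kinase, had 117 and 119 CPM in the 2-D and 102 CPM in each of the 3-D libraries (log2 fold change −0.21, edgeR, Benjamini-Hochberg adjusted p = 0.00116). WEE1, the kinase that inhibits CDK1, had a log2 fold change of −0.14 (edgeR, Benjamini-Hochberg adjusted p = 0.0423). WEE1 lost the call under 6 of the 15 alternatives, with DESeq2 and the likelihood ratio test among them (adjusted p from 0.0533 to 0.293 where lost), and CDK1 under 0. The other 17 did not pass the test. CCNA2, a cyclin of S phase and mitosis that is also named after its values were seen, was the 1 gene above 0 with an unadjusted p below 0.05 in edgeR's test, and DESeq2 called 0 higher. Without 2-D replicate 2 a single gene of the list was called, and without 3-D replicate 2 there were 4.

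Of 17 paralogs of the 9 genes, 16 were tested, with 3 called higher, 2 lower, 11 not called and a median log2 fold change of 0.036. The shares over all tested genes were 4.54% higher and 3.36% lower. The phosphatase PPM1B, a relative of PPM1D, had 75.2 and 80.3 CPM in the 2-D and 63.4 and 61.7 CPM in the 3-D libraries (log2 fold change −0.31, edgeR, Benjamini-Hochberg adjusted p = 0.000741). PPM1G, of the same family, had 216 and 210 CPM in the 2-D and 258 and 240 CPM in the 3-D libraries (0.23, adjusted p = 0.00247, edgeR). YWHAE and YWHAH, relatives of SFN, were higher by 0.32 and 0.11 (edgeR, adjusted p = 0.0131 and 0.049), and YWHAE has a near-identical copy on an alternate contig of hg38, so its counts are uncertain. CDKN1C, an imprinted relative of CDKN1A that also has such a copy, had only 41 and 29 counts in the 2-D and 3 and 8 in the 3-D libraries (−1.88, standard error 0.45, edgeR, Benjamini-Hochberg adjusted p = 0.0235). Its call was lost without replicate 1 of 2-D (−1.69) or of 3-D (−1.25), and YWHAH lost its call under 10 of 15 alternatives (adjusted p from 0.0505 to 0.405 where lost, edgeR or DESeq2). Of the list, 3 genes were called without either 2-D library. For none of the 9 genes was a near-identical copy found.

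**Figure D5:**
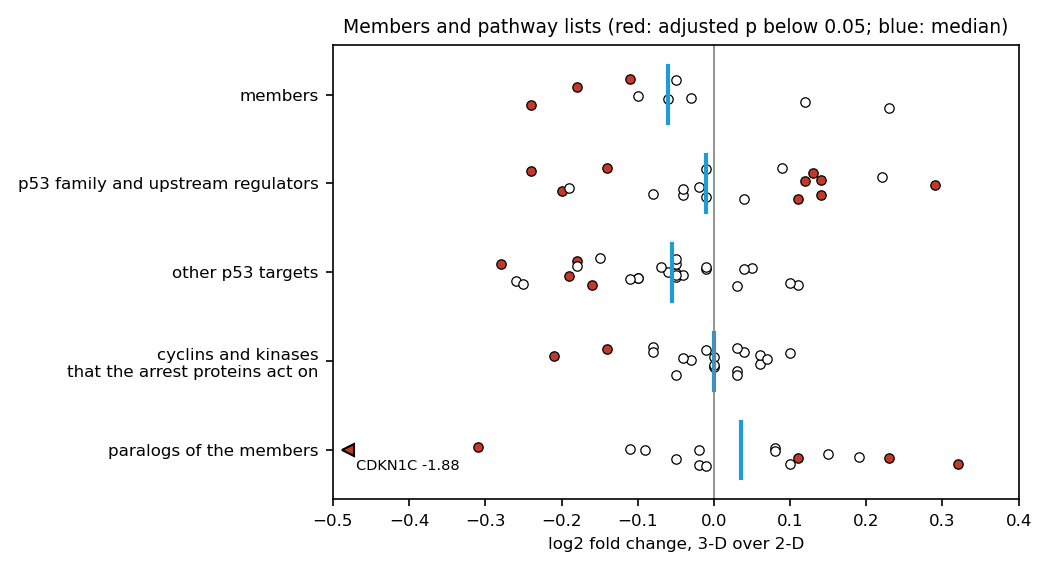
Log2 fold change, 3-D over 2-D (x axis) of each tested gene among the 9 genes (labelled members) and the 4 pathway lists (y axis). Red points have an adjusted p below 0.05, the blue bar is the median of a list, and CDKN1C, at −1.88, lies beyond the left edge.

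For the called genes, the tested genes with the most similar pattern over the 4 libraries were found by the root mean square difference of log2 CPM, each gene centered on its own mean. For MDM4 they were ENSG00000278434, MRPS21 and PDK3 (0.0027, 0.0037 and 0.0045). For CCNG1 they were ENSG00000255310, SLC25A36 and SLC30A6 (0.004, 0.0057 and 0.0061), and for RPRM KANTR, COX7A2 and SYDE2 (0.0088, 0.0096 and 0.011). Of these, MRPS21, PDK3 and COX7A2 were themselves called, all lower. With 4 libraries that differ in depth between the conditions, this is a description only.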

How the data were processed

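The authors prepared ribosome-depleted total RNA, sequenced it with paired ends, trimmed with Trim Galore 0.6.3, mapped to hg38 with HISAT2 2.1.0 and counted reads per GENCODE gene with featureCounts 1.6.4. The deposited counts are whole numbers without normalization, 1 set per library. A deposited table with the same counts divided by size factors and the authors' own fold changes and p-values was not used. How strand and multi-mapping reads were treated is not given in the sources used here.

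Of 60564 gene identifiers, 60295 matched GENCODE release 44, used for names, positions and lengths. Counts were tested with edgeR 4.0.16 in R 4.3.3 (TMM, filter on low counts with 22555 genes left, quasi-likelihood test in legacy mode, condition alone, Benjamini-Hochberg adjustment). Intervals and standard errors come from the test statistic. CPM are TMM-normalized, and with 2 libraries per condition precision is limited. Alternatives included DESeq2 1.42.0. Copies were searched with minimap2 2.31-r1302 (at least 80% of the longest transcript at 98% identity). Named were the 9 genes, up to 8 called genes per pathway list, and for each called gene the 3 most alike genes with a mean CPM of at least 1. The genes and lists were chosen with earlier results of these data known. Some genes that this rule names are not reported here.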

Additional observations from a re-analysis of the deposited data

How the results depend on the processing

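The 3 called genes numbered 5 with library size only, 1 with DESeq2, 1 with the likelihood ratio test and 1 to 5 with a library left out. The median log2 fold change of all 9 genes, −0.06, was −0.12 with library size only and −0.1 to −0.043 with a library left out. Upstream regulators called numbered 9, and 4 with library size only, 4 with DESeq2, 1 with the likelihood ratio test, 5 with offsets correcting for GC content and length and 1 to 9 with a library left out. Other p53 targets called numbered 4, and 10 with library size only and 3 to 7 with a library left out. Cyclins and kinases called numbered 2, and 4 with library size only, 1 with DESeq2, 1 with the likelihood ratio test, 1 without edgeR's legacy mode (chosen after seeing the data) and 1 to 4 with a library left out. Paralogs called numbered 5, and 3 with DESeq2 (which gave CDKN1C no adjusted p), 3 with at least 10 counts in every library and 3 to 6 with a library left out. Over all genes the 1782 calls became 795 with DESeq2, 1139 with the likelihood ratio test and 974 to 2643 with a library left out, where the lone library is assumed to vary like the other condition. The causes were not tested. GADD45A alone of the 9 genes turned direction, to 0.0067 (without 2-D replicate 1) and 0.047 (3-D replicate 2 left out). Of 298 values for 20 genes named in the lists, 238 stayed on their side of the threshold, 60 lost the call and 0 reversed.

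With the replicate number as a block (replicate block), 3 of the 9 genes and 2167 genes in all were called. The deviations of same-numbered libraries from their condition means had a correlation of −0.014. That value cannot show whether these libraries were paired, and the sample titles give only a replicate number. The blocked fit is therefore not read as a paired analysis. Library size without mitochondrially encoded genes, also added after seeing the data, left 3 of the 9 genes called. The lowest count of any of the 9 genes in a library was 352, for SFN.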

Other observations

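Matches to the p53 consensus were found near 7.51% of the 586 protein-coding genes called lower in 3-D grown cells, 7.95% of the 830 called higher and 7.55% of the 12876 tested and not called. These shares are descriptions, with no test, and a match does not show binding.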
